A study of Mus musculus with 16 samples.

Results

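The cytosolic chaperonin CCT, also called TRiC, is the chamber in which newly made actin and tubulin fold, and the 8 mouse genes for its subunits (Tcp1, Cct2, Cct3, Cct4, Cct5, Cct6a, Cct7 and Cct8) are described here out of 23356 genes in each expression table. They were chosen by symbol, as the named subunits of a complex, and not by any measured value, although earlier results of these data were known. The cells were mouse fibroblasts of the line NIH3T3 with a stable copy of DD-sfGFP, in which a destabilizing domain is joined to a superfolder form of GFP. The untreated control group was harvested at 0 min and the treated groups at 45, 135 and 405 min after exposure to bortezomib, an inhibitor of the proteasome. Each group had 4 replicate libraries.

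All 4 groups carried the same fusion protein, so no group without the destabilizing domain enters any comparison. The study's methods describe PiggyBac transposon plasmids with DD-sfGFP, and a retroviral vector for sfGFP alone and for a DD-sfGFP expressed at a low level. Each was followed by sorting of cells with much GFP by flow cytometry. The labels do not name the route for these samples. The labels give neither the bortezomib dose nor whether replicates came from separate cultures, so p-values measure only the spread between these samples. Vehicle-treated cells at the later times were not analysed here, so drug and elapsed time cannot be told apart. In bulk RNA, fewer cells of a type and less RNA per cell cannot be told apart either.

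CCT consists of a pair of stacked rings, and each ring holds every subunit once, so the complex needs the products of all 8 genes. Prefoldin and phosducin-like proteins bring clients to the chamber or adjust its cycle, and actins, tubulins and many WD40 repeat proteins are folded in it. Unlike the heat-inducible chaperones, CCT works mainly during protein synthesis, and heat shock factor and other activators have been linked to its genes.

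The libraries fell into separate classes before any subunit was examined, and every subunit value has to be read against them. The share of fragments in ribosomal protein genes was 4.25% to 9.42% in 7 libraries (replicates 1 and 2 of both 45 and 135 min, with replicates 1, 3 and 4 of 405 min) and 0.398% to 1.21% in the other 9, which included all 4 controls. The first class held 1385229 to 19930375 fragments assigned to genes and the second 570323 to 1469951. The summed level of 9 fibroblast markers was 3368 to 20671 fragments per 1000000 assigned to genes (CPM) in the first class and 258 to 1542 CPM in the second, and none of the 9 was at 0 throughout. The leukocyte markers Ptprc and Cd68 summed to 0 to 20.7 CPM in the first class and 19.7 to 110.5 CPM in the second, and epithelial, endothelial and neuronal pairs also had higher median sums in the second class. The 1445 genes of olfactory and vomeronasal receptors, most of which a fibroblast is not known to use, held 0.00556% to 2.62% of fragments in the first class and 4.16% to 5.13% in the second. Since no control was above 4%, bortezomib and library class cannot be told apart among the libraries with a high share. The same split parted the CPM levels of every subunit except Cct6a and Cct7, which overlapped between the classes. The part of these marker differences in the results was not tested.

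The upstream sequences of the genes were read first for heat shock elements, the motif of heat shock factor, and for CCAAT, the motif of the factor NF-Y. RefSeq promoter windows (GRCm38.p6) covered 7 members, all but Cct4, in 9 windows. Each whole window occurred exactly once on its own chromosome in NCBIM37 (mm9), whose coordinates are given, and other chromosomes were not searched. The 250 bases before each transcription start were read. GAANNTTC or TTCNNGAA, each of which reads the same on both strands, lay before a start of 2 of the 7 members, Cct2 and Cct5, against 14.6% of all 26742 genes with a window. The Cct2 match lay in the second of its windows, inside the annotated gene span. The Cct2 window upstream of that span held no match. CCAAT, searched on both strands, lay before the start of 4 members, Cct3, Cct6a, Cct7 and Tcp1, against 37.5% of all genes. For Tcp1 this is a RefSeq start inside the annotated gene. Its window, chr17:13108945-13109194, lies within the annotated span, which begins at 13108567 on the plus strand. No member window held both motifs, so none overlapped. A match is a string of letters and not a bound site. Neither count of members was tested against its share of all genes, and Cct8, with neither motif, and Cct4, without a window, belong to neither. The stretch nearest to the start is printed for each of the 6 genes with a match, so that its letters can be read. The motif is in capitals (ATTGG is CCAAT on the other strand).
Cct2, chr10:116500455-116500484, minus strand: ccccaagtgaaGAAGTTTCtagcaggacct
Cct5, chr15:31531617-31531646, minus strand: acagcggccgaTTCCAGAAgctactctgcg
Cct3, chr3:88101012-88101041, plus strand: atgagtttggtgATTGGcggcacttcagag
Cct6a, chr5:130293191-130293220, plus strand: gagggtcgccacCCAATggaggtgctctgt
Cct7, chr6:85401392-85401421, plus strand: aaccgggcgctgATTGGccaaaactcttaa
Tcp1, chr17:13109051-13109080, plus strand: atccctggctcaCCAATcaccgcagacgtt

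In these stretches the motif began 42 bases before the start in Cct2 (in the second of its windows), 34 in Cct5, 33 in Cct3, 29 in Cct6a, 95 in Cct7 and 132 in Tcp1. Further CCAAT matches lay 125 and 187 bases before the start in Cct7, 74 in Cct3 and 59 in Cct6a. In the libraries above 4%, the median FPKM, the deposited level per length, of Cct2 and Cct5 (420.4 and 316) lay above those of the 4 genes with CCAAT (45.9 to 234), and so did their levels per exon union length (347 and 163, against 33.4 to 84.4). Cct8, whose window held neither motif, stood at 252 FPKM and at 241 per exon union length, above Cct5 on the latter scale. Cct4, which had no window, stood highest in FPKM, at 601, and at 230 per exon union length. With 2 and 4 genes, this is a description without a test.

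Levels were read first as CPM over all fragments assigned to genes. In the 7 libraries above 4%, the 8 subunits together made up 2066 to 5743 CPM, and in the other 9 libraries 93.7 to 383 CPM, a 23.2-fold difference of medians. The ribosomal protein share itself differed 18.9-fold between the medians of the classes. For 6 of the 8 subunits, the lowest library above 4% exceeded the highest library at or below it, and Cct6a and Cct7 were the exceptions. The fold between class medians was 39.9 for Cct8, 29.9 for Tcp1, 25.2 for Cct4, 22.5 for both Cct3 and Cct5, 21.6 for Cct2, 9.83 for Cct6a and 6.22 for Cct7. Behind these levels stood 24 to 33408 fragments per subunit and library above 4%, but only 0 to 101 in the other class, where 7 of the values were 0.

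**Figure D1:**
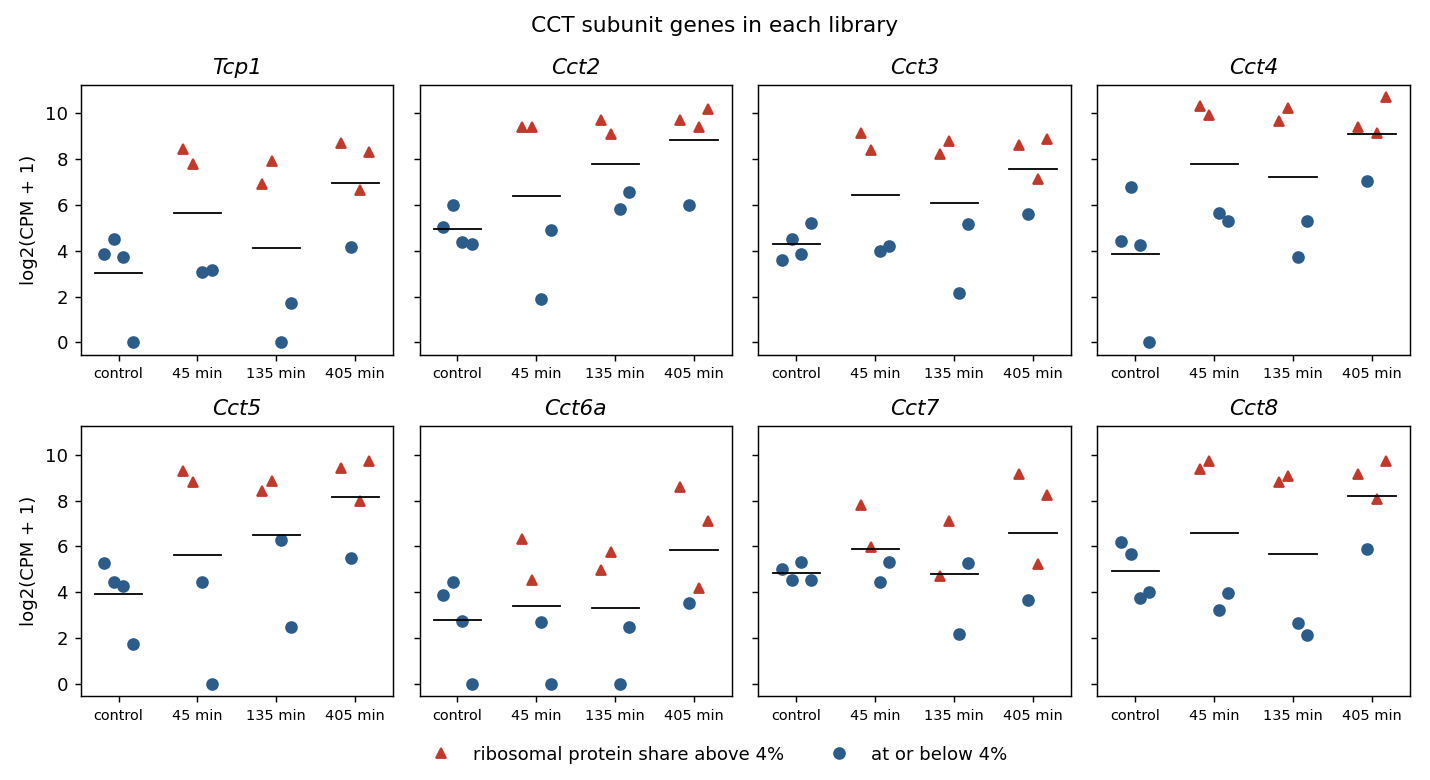
Level of each CCT subunit gene as log2(CPM + 1) in each of the 16 libraries, by group (x axis), with triangles for libraries with a ribosomal protein share above 4%, circles for the others and a line at each group mean. Triangles lie above circles in nearly every panel, all 4 controls are circles, and in the Cct6a and Cct7 panels the classes overlap.

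Cct2 encodes the beta subunit. Its level was 31.6, 63.8, 20.2 and 18.5 CPM in control replicates 1 to 4 and 681, 673, 2.72 and 28.8 CPM at 45 min. At 135 min it was 839.9, 557, 56.1 and 93.1 CPM, and at 405 min 840.5, 63.7, 679 and 1156 CPM. The 405 min library with the low share, replicate 2, lay just below control replicate 2, so the groups overlapped by that pair.

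Cct3, the gamma subunit, stood at 11.3, 22.1, 13.5 and 35.8 CPM in control and at 562, 338, 15.0 and 17.6 CPM at 45 min. It stood at 297, 451, 3.51 and 35.2 CPM at 135 min and at 396, 48.1, 138 and 466 CPM at 405 min. All 4 libraries of 405 min were above all 4 controls, the lowest of them by a small margin.

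Cct4, the delta subunit, was measured at 20.3, 110.3, 17.95 and 0 CPM in control, where 0 fragments in replicate 4 allow up to 3.47 CPM. It reached 1288, 968, 49.0 and 38.4 CPM at 45 min, 807, 1192, 12.3 and 38.6 CPM at 135 min, and 687, 131, 574 and 1676 CPM at 405 min. The 4 libraries of 405 min lay above all controls, whereas at 45 and 135 min only replicates 1 and 2 did.

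Cct5, the epsilon subunit, had 37.3, 20.9, 17.95 and 2.31 CPM in control and 624, 451, 20.4 and 0 CPM at 45 min. At 135 min it had 336, 459, 75.4 and 4.54 CPM, and at 405 min 675, 44.2, 250.5 and 848 CPM. Here, too, no 405 min library overlapped the controls, and at 135 min replicate 3, a library with a low share, was also above them.

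Cct8, the theta subunit, spread widely among the controls, with 72.3, 49.9, 12.3 and 15.0 CPM. It stood at 661, 848, 8.16 and 14.4 CPM at 45 min, 444, 532, 5.26 and 3.41 CPM at 135 min and 575, 57.2, 271 and 839 CPM at 405 min. At 135 min the libraries with a low share were below every control, and those with a high share were above every control.

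Tcp1, the alpha subunit and the first to be named, was at 13.6, 22.1, 12.3 and 0 CPM in control and at 350, 224, 7.48 and 8.01 CPM at 45 min. Its levels were 119, 239.8, 0 and 2.27 CPM at 135 min and 424, 16.9, 101 and 320 CPM at 405 min. Replicate 2 of 405 min was within the control range and the other 3 replicates were above it.

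Cct6a, the zeta subunit of most tissues, had 13.6, 20.9, 5.61 and 0 CPM in control. It had 79.6, 22.1, 5.44 and 0 CPM at 45 min, 29.8, 53.5, 0 and 4.54 CPM at 135 min, and 379, 10.4, 17.3 and 135 CPM at 405 min. Replicates 1 and 4 of 405 min were the highest of all 16 libraries, while replicate 3, also above 4%, was below the highest control.

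Cct7, the eta subunit, had the least spread among the controls, at 31.6, 22.1, 39.3 and 22.0 CPM. It was at 219, 61.4, 20.4 and 38.4 CPM at 45 min, 24.7, 137, 3.51 and 37.5 CPM at 135 min, and 563, 11.7, 36.1 and 300.5 CPM at 405 min. At 405 min, 2 libraries were above all controls, replicate 3 was inside the control range and replicate 2 was below it.

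Counts over all genes were set beside these overlaps. At 405 min, 3 of the 8 subunits (Cct3, Cct4 and Cct5) had all 4 treated libraries above all 4 controls, against 2.68% of the 22359 genes with a count in any library. At 45 and 135 min 0 of 8 did, against 0.698% and 0.729% of genes. Subunits with all treated libraries below all controls numbered 0 at each time, against 4.36%, 8.85% and 7.42% of genes at 45, 135 and 405 min. As 3 of the 4 libraries of 405 min were above 4% and none of the controls was, the count at 405 min rests on replicate 2, the sole treated library of that time in the class of the controls.

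To ask whether the subunit genes changed with bortezomib beyond the spread between replicates, estimated fragment counts were fitted with edgeR's quasi-likelihood model over all 16 libraries, testing genes with at least 1 count in every library. This left 5030 genes and only 4 subunits, Cct2, Cct3, Cct7 and Cct8. Tcp1, Cct4, Cct5 and Cct6a were each at 0 in at least 1 library and were compared separately. No subunit passed an adjusted p of 0.05 in any of the 6 comparisons between groups, and 0% of all tested genes did, in the comparisons of 45, 135 and 405 min with control (smallest adjusted p 0.381, 0.513 and 0.285) and among the treated times. At an unadjusted p under 0.05, 3 of the 4 tested subunits were higher after 45 min, 2 after 135 min and 4 after 405 min, against 12.1%, 7.83% and 14.5% of tested genes.

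The fitted differences were nevertheless large. Against control, Cct2 differed by a log2 fold change of 3.84 ± 1.47 at 45 min, 3.87 ± 1.47 at 135 min and 4.76 ± 1.54 at 405 min (SE; edgeR adjusted p = 0.381, 0.513 and 0.285). Cct3 gave 3.95 ± 1.41, 3.53 ± 1.38 and 4.08 ± 1.42 with the same adjusted p-values in edgeR's test. Cct8 gave 3.84 ± 1.66, 3.03 ± 1.61 and 3.97 ± 1.67 (edgeR adjusted p = 0.381, 0.518 and 0.287). Cct7 stood lower at the early times, at 1.95 ± 1.11 and 0.99 ± 1.08, and reached 3.38 ± 1.17 at 405 min (edgeR adjusted p = 0.450, 0.757 and 0.285). The 4 had a median of 3.84, 3.28 and 4.02 at the 3 times, beside 0.14, 0.16 and 0.11 over all tested genes. The common dispersion was 0.625, a spread at which none of 179 simulated 4-fold changes in 405 min against control was recovered. Every subunit value fitted at 405 min exceeded 4-fold, and the simulated counts held no library classes. The simulation therefore does not show whether changes of the fitted size could be called.

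The choice of test changed these calls. On the same 5030 genes, DESeq2 called Cct2, Cct3 and Cct8 at 45 min (adjusted p = 0.0261, 0.0261 and 0.0320), where it called 6.56% of all tested genes. It called Cct2 and Cct3 at 135 min (DESeq2 adjusted p = 0.0428 for both), where it called 3.44% of genes and gave no adjusted p for Cct7. At 405 min it called all 4 (DESeq2 adjusted p = 0.00865 to 0.0336), where it called 8.03% of genes. Every one of its calls in these 3 comparisons, over all genes, was higher in the treated group. edgeR's exact test called 0 subunits and 0, 0 and 12 genes at 45, 135 and 405 min.

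The 4 subunits removed by the filter were compared by exact permutation, 2-sided, on group means of log2(CPM + 1), in 12 tests left unadjusted, for which the smallest possible p is 0.0286. Cct4 differed from control by 3.94 at 45 min, 3.36 at 135 min and 5.22 at 405 min (exact p = 0.143, 0.200 and 0.0286). Cct5 differed by 1.71, 2.57 and 4.23 (exact p = 0.543, 0.171 and 0.0286). For Tcp1 the differences were 2.60, 1.10 and 3.94 (exact p = 0.286, 0.600 and 0.0571), and for Cct6a 0.63, 0.54 and 3.08 (exact p = 0.714, 0.771 and 0.143). Thus 2 of 12 reached the smallest p that 4 against 4 libraries allow, both at 405 min, when 3 of the 4 treated libraries were above 4%. That p arises only where the groups do not overlap, so it restates the separation of Cct4 and Cct5 already counted above. Over all 22359 genes with a count, 2.68% were higher and 7.42% lower without overlap at 405 min.

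The fitted differences depended on what was done about the ribosomal protein share. With its log2 as a covariate, the median of the 4 tested subunits was 0.09, -0.10 and 0.62 at the 3 times in turn. With ribosomal protein fragments as the library size, a setting chosen after the data were seen, the medians were 0.03, -0.15 and 0.34, while the median of all tested genes was -0.54, -0.67 and -2.25. Among only the 9 libraries at or below 4%, where 8366 genes were tested and 405 min had 1 library, they were -0.76, -0.28 and 0.77. In none of these 3 fits was a subunit called by edgeR, at any of the 3 times.

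**Figure D2:**
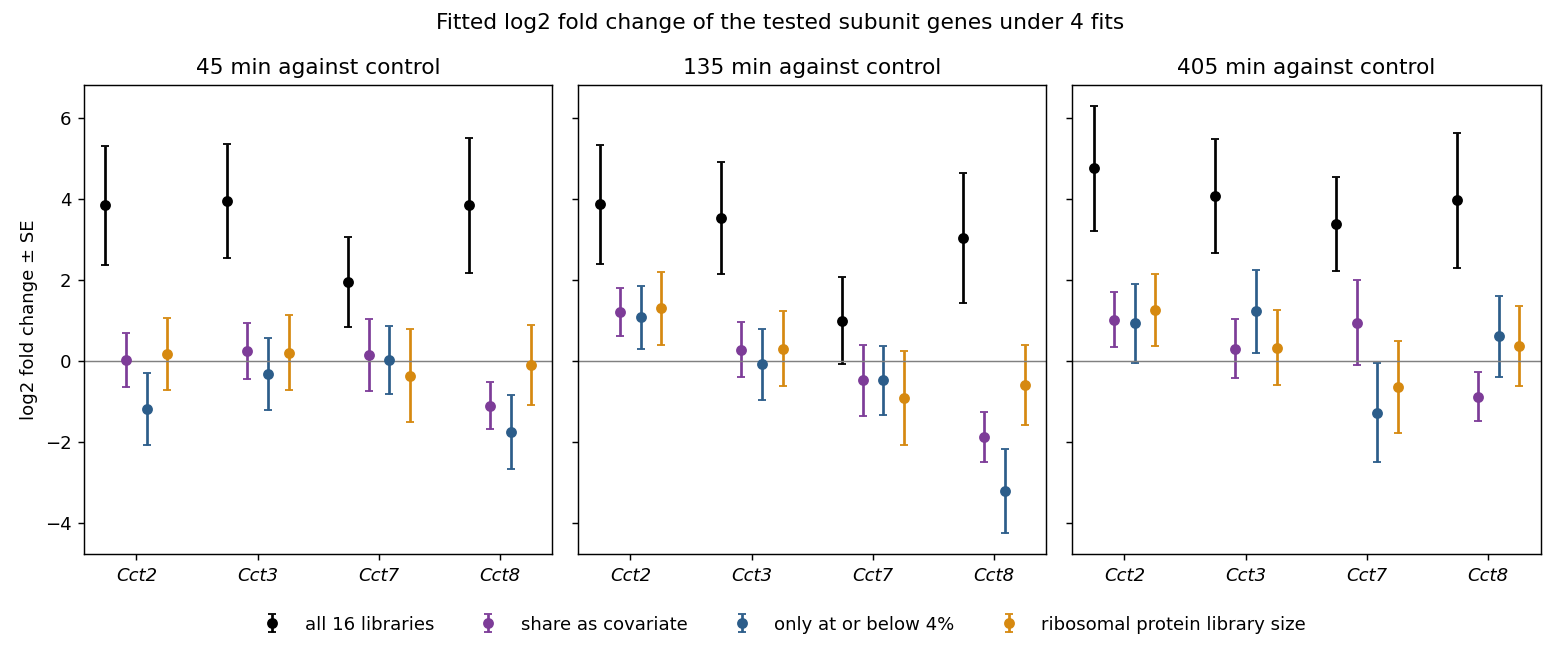
Fitted log2 fold change (points) with its SE (bars) of the 4 tested subunit genes at each time against control, under 4 fits that treat the ribosomal protein share differently. The fit to all 16 libraries lies highest for each gene and time, and the other 3 fits scatter around 0.

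Within the libraries at or below 4%, the fitted values had both signs. Cct8 was lower at 135 min than in control by a log2 fold change of -3.21 ± 1.04 (unadjusted p = 0.00733, edgeR adjusted p = 0.294), from 3 fragments in each of the 2 libraries of 135 min. Cct2 stood at 1.07 ± 0.77 in the same comparison (edgeR adjusted p = 0.673). In the single library of 405 min, Cct3 stood at 1.23 ± 1.03, Cct2 at 0.93 ± 0.97, Cct8 at 0.61 ± 1.0 and Cct7 at -1.28 ± 1.22, each with an edgeR adjusted p of 1.0, on the assumption that this library varied like the others.

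Read per 1000 ribosomal protein fragments, the classes came together. The 8 subunits summed to 42.8, 27.4, 31.5 and 23.5 fragments per 1000 in control replicates 1 to 4. At 45 min the sums were 53.5, 38.0, 31.5 and 34.5. They came to 34.2, 58.7, 26.9 and 50.4 by 135 min, then to 67.0, 42.3, 48.6 and 66.8 by 405 min. The 405 min libraries were the highest group, and their lowest value, replicate 2, fell just short of the highest control. The class medians differed 1.70-fold on this scale, against 23.2-fold in CPM.

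**Figure D3:**
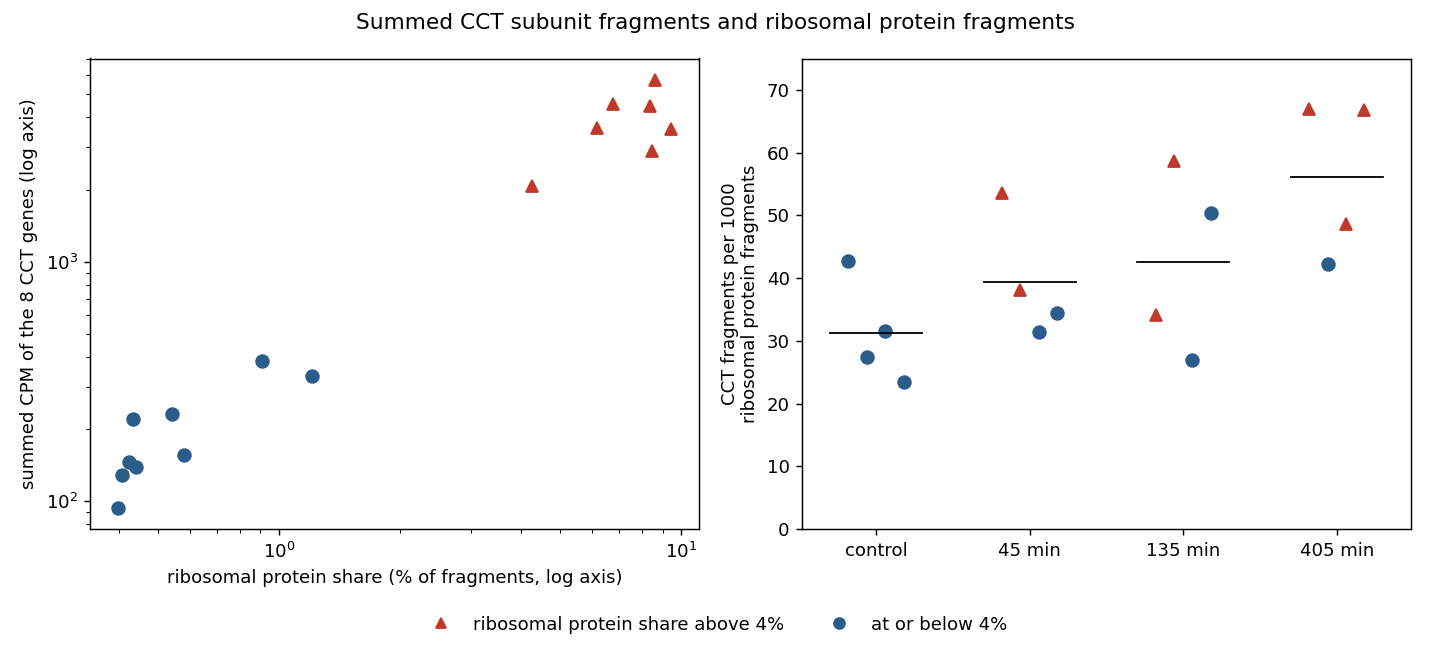
Left, summed CPM of the 8 subunit genes against the ribosomal protein share of each library (both log axes), where the 16 libraries form 2 separate clouds. Right, summed CCT fragments per 1000 ribosomal protein fragments by group with a line at each mean, where the controls span 23.5 to 42.8 and the 405 min libraries 42.3 to 67.0.

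On this scale Cct6a and Cct7 had the lower median above 4%, unlike the other 6 subunits. The median per 1000 ribosomal protein fragments was higher in the libraries above 4% by 2.49-fold for Cct8, 2.03-fold for Tcp1, 1.83-fold for Cct5, 1.70-fold for Cct2, 1.52-fold for Cct4 and 1.48-fold for Cct3. For Cct7 the median was 2.22 above 4% and 5.52 in the other class, a ratio of 0.403, and for Cct6a it was 0.867 and 1.15, a ratio of 0.756. The classes overlapped for both genes, since 405 min replicate 1 held 8.31 Cct7 fragments per 1000 and control replicate 2 held 1.82. Between these classes no test was run, since they are not groups of the study.

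The course could be followed within the class above 4%, with 2 libraries at 45 min, 2 at 135 min and 3 at 405 min. There all 8 subunits were among the 8605 genes tested by edgeR, and 0 of 8 and 0% of genes passed in each of the comparisons of 135 with 45 min, 405 with 135 min and 405 with 45 min. From 45 to 135 min all 8 fitted log2 fold changes were negative, with a median of -0.49, beside -0.07 over all genes tested. From 135 to 405 min all 8 were positive, with a median of 0.60, beside 0.16 over all genes. These comparisons share the 135 min libraries, so a low value there gives both signs. Leaving out 1 library of the compared times left 0 to 2 positive in the first of them and 5 to 8 in the second, whose median was 0.19 without 405 min replicate 4, while the median of the first was -0.12 without 45 min replicate 1. From 45 to 405 min 4 of the 8 were positive, with a median of 0.09, beside 0.14 over all genes. The signs of the subunits depended on the scale. Per 1000 ribosomal protein fragments, means rose from 45 to 135 min for Cct2 (7.65 to 9.47), Cct3, Cct4 and Cct6a (0.595 to 0.609). They fell for Tcp1, Cct5, Cct7 and Cct8 (8.46 to 6.93). From 135 to 405 min, means on that scale fell for Cct3 (5.40 to 4.84) and Cct4, and rose for the other subunits. The values over all genes depended on the filter, since filterByExpr, which kept 19277 genes, gave all-gene medians of 0.75, 0.05 and 0.94 for the 3 steps in the order given, beside -0.51, 0.54 and -0.00042 for the subunits, of which 0, 7 and 4 were positive.

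The largest differences within that class belonged to Cct6a and Cct7. From 135 to 405 min Cct6a stood at 2.22 ± 1.07 and Cct7 at 2.11 ± 1.11 (unadjusted p = 0.0646 and 0.0863, edgeR adjusted p = 0.909 for both). Tcp1 stood at 0.83 ± 0.72 and Cct5 at 0.74 ± 0.73 (edgeR adjusted p = 0.914 and 0.919), and Cct2, Cct8, Cct4 and Cct3 lay between 0.01 and 0.46. Both Cct6a and Cct7 were highest in replicate 1 of 405 min, and low in replicate 3. Without replicate 1 they stood at 1.18 ± 1.0 and 1.43 ± 1.1. In replicate 1 the share of genes at 0 was 5.65%, against 43.1% in replicate 4.

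**Figure D4:**
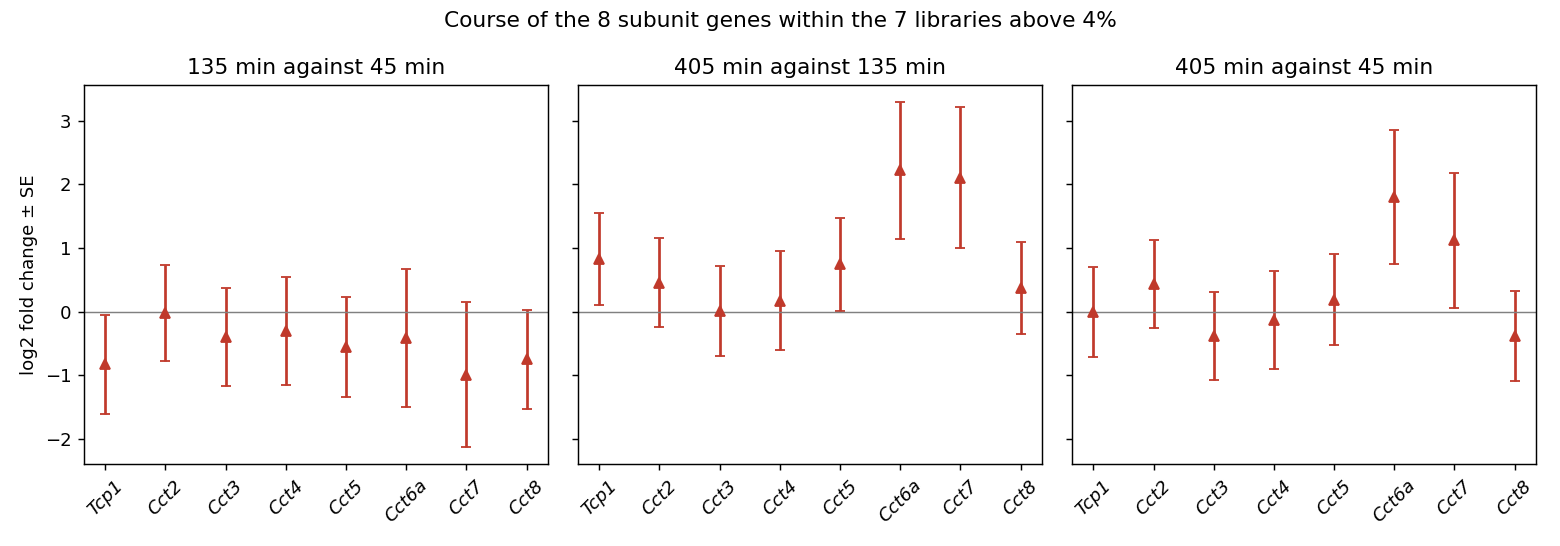
Fitted log2 fold change (triangles) with its SE (bars) of the 8 subunit genes between times, within the 7 libraries above 4%. All 8 lie below 0 from 45 to 135 min and above 0 from 135 to 405 min, with bars of 1 SE that reach 0 for 7 of the 8 genes in the first of these steps and for 4 in the second.

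Subunits were compared with each other only per length, on the scale of the deposited FPKM. Over the 7 libraries above 4%, the median FPKM was 601 for Cct4, 420.4 for Cct2, 316 for Cct5, 252 for Cct8, 234 for Cct3, 116 for Tcp1, 55.5 for Cct7 and 45.9 for Cct6a. Neighbours in this order exchanged places in some libraries. Cct4 exceeded Cct2 in 4 of 7 libraries, Cct8 exceeded Cct3 in 4 and Cct7 exceeded Cct6a in 4, so these pairs do not differ beyond their spread. The other 4 neighbouring pairs kept their order in 6 of 7 libraries.

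As a share of the summed FPKM of the 8 genes, which does not depend on depth, Cct4 made up 27.7 ± 5.23% (SD, n = 7 libraries above 4%) and Cct2 21.7 ± 7.04%. Cct5 had the steadiest share, 15.2 ± 1.07%, and ranged from 13.9% to 16.9%. Cct8 made up 13.0 ± 3.12%, Cct3 9.90 ± 2.52% and Tcp1 5.23 ± 1.56%. Cct6a and Cct7 made up 3.78 ± 4.45% and 3.53 ± 2.64%, and 405 min replicate 1 held the highest share of both, 13.6% and 8.32%. With the exon union length of the annotation in place of the length behind the FPKM, Cct2 led with 30.9% and Cct4 and Cct8 followed with 18.4% and 18.6%. The FPKM order was preferred after both had been seen, because the exon unions of some subunits are far longer than any one transcript (5030 bases for Tcp1 against 2446 for its longest protein-coding transcript).

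**Figure D5:**
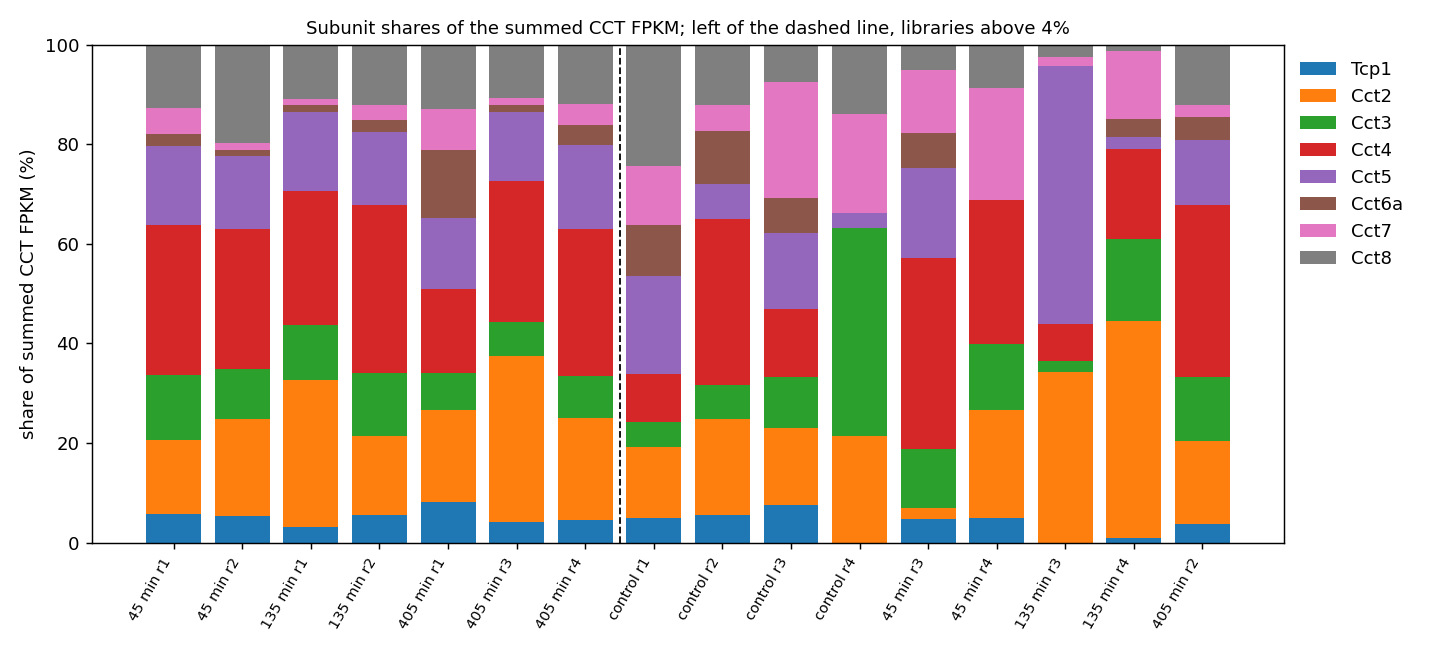
Share of each subunit gene in the summed FPKM of the 8 genes, in percent, for each library (r, replicate), with the 7 libraries above 4% left of the dashed line. Among the bars on the left, the Cct5 share varies least, and the Cct2 and Cct4 shares differ between libraries. The Cct6a and Cct7 shares there are largest in 405 min replicate 1, and the bars on the right vary widely.

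In the 9 libraries at or below 4% the shares were far less steady, from few fragments. Cct5 ranged from 0% to 51.8%, Cct3 from 2.15% to 41.7% and Cct2 from 2.14% to 43.6%. Cct7 made up 12.6 ± 8.26% there (SD, n = 9) and Cct6a 4.78 ± 4.24%.

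Levels of the members correlated more over the 2 classes together than within either. Over all 16 libraries, which form 2 clouds, the pairwise Pearson r of log2(CPM + 1) ran from 0.540 (Cct5 and Cct7) to 0.937 (Tcp1 and Cct8), with a median of 0.823 over 28 pairs. Within the 7 libraries above 4% the median was 0.690, with a lowest value of 0.148 for Cct2 and Cct3 and a highest of 0.944 for Tcp1 and Cct7. Within the other 9 the median was 0.241, from -0.616 to 0.795. These are descriptions over points that share depth and library class.

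The genes most like the mean of the tested subunits over the 16 libraries were Copb2, Ranbp2, Rpl31, Eef1b2 and Ranbp1, with r of 0.981, 0.979, 0.978, 0.972 and 0.971 among 5026 other genes. Set against the mean of the other tested subunits, Cct3 reached an r of 0.939 and Cct7 an r of 0.724. Among the r of the 5026 other genes, these values would rank 66 and 856. Within the 7 libraries above 4%, the genes most like the mean of all 8 included Rpl3, Mrps7 and P4ha1, with r of 0.994, 0.989 and 0.988. There Cct5 came closest to its partners (r = 0.978) and Cct2 least close (r = 0.381). Among the r of 8597 other genes, these values would rank 16 and 2843.

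The helpers and clients of CCT were read from lists, and 0 members of any of them passed edgeR's test in either direction at 45, 135 or 405 min against control. Of the prefoldin and tubulin cofactor genes, 0 of 5 and 0 of 5 in the tables were tested. Prefoldin, which hands clients to CCT, could be followed within the libraries above 4%, where the median of its 5 genes was -0.65 from 45 to 135 min, beside -0.49 for the subunits. From 135 to 405 min it was -0.52, between -1.16 for Pfdn1 and 1.19 for Pfdn5, beside 0.60 for the subunits. Of the phosducin-like cofactors, Pdcl3 stood at 1.58 ± 1.28 and Txndc9 at 0.55 ± 0.53 at 405 min against control (edgeR adjusted p = 0.510 and 0.568), both below the tested subunits.

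Of the client genes, 3 of 6 actins were tested, with 405 min values from 2.18 ± 1.27 for Acta2 to 4.55 ± 1.74 for Actb, the cytoplasmic actin of most cells (edgeR adjusted p = 0.380 and 0.285). Among 5 tested tubulins of 20 in the tables, Tubb5 had the highest value, 4.05 ± 1.38, and Tuba1a the lowest, 1.51 ± 0.81 (edgeR adjusted p = 0.285 and 0.348). Among 5 tested WD40 and other clients of 12, Gnb1, a G protein beta subunit, stood at 3.04 ± 1.27 and Bbs2, a part of the BBSome, at -0.86 ± 0.77 (edgeR adjusted p = 0.285 and 0.544). At 45, 135 and 405 min the actins had medians of 4.24, 2.47 and 2.67, the tubulins 2.20, 1.75 and 2.02, and the other clients 1.90, 1.03 and 0.66, beside 3.84, 3.28 and 4.02 for the subunits. The actin median was thus above that of the subunits at 45 min and below it at the later times.

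Other chaperonins were read as well. Hspd1, the mitochondrial chaperonin, stood at 3.17, 3.47 and 4.6 ± 1.58 at 45, 135 and 405 min against control (edgeR adjusted p = 0.285 at 405 min), and its partner Hspe1 was not tested. The testis relative Cct6b and the relative Cct8l1 had medians of 0.131 and 0.351 CPM above 4%, against 6.78 and 26.9 CPM in the other class, opposite to the 8 subunits. The receptor genes had the same direction (median share 0.338% above 4% and 4.80% in the other class), so this is not particular to these relatives. Bbs10, one of the chaperonin-like genes of Bardet-Biedl syndrome, stood at -0.57 ± 1.13 at 405 min (edgeR adjusted p = 0.770), and Mkks and Bbs12 were not tested.

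The heat-inducible chaperones had larger fitted differences than most subunits within the libraries above 4%. From 45 to 405 min the median of the 5 comparators was 3.89, against 0.09 for the 8 subunits. From 135 to 405 min Hsph1, Hspa8, Dnajb1, Hspa1b and Hsp90aa1 stood at 2.69, 2.64, 2.37, 2.0 and 1.26, and of the subunits only Cct6a and Cct7 had a value above the lowest of these. In the comparison of 405 min with control over all 16 libraries, the 5 ranged from 3.36 ± 0.83 for Dnajb1 to 7.62 ± 1.73 for Hspa1b (edgeR adjusted p = 0.285 for each). None of these differences between lists was tested.

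Genes that overlap the subunits were checked, because the counting was not stated to use strand and reads of overlapping genes on opposite strands then cannot be told apart. In NCBIM37 (mm9), Tcp1 lies on chromosome 17 from 13108567 to 13117933, plus strand, and shares 571 exonic bases with Acat3 and 141 with Mrpl18, both on the other strand. Cct8 lies on chromosome 16 from 87483570 to 87496114, minus strand, and shares 193 exonic bases with Usp16. The median levels above 4% were 126.5 CPM for Acat3, 85.9 for Mrpl18 and 82.4 for Usp16, against 239.8 for Tcp1 and 575 for Cct8. Cmbl and Fam173b beside Cct5 were at medians of 0 and 4.37 CPM, and Psph, beside Cct6a, was at 78.7 CPM, above the 53.5 CPM of Cct6a itself. The levels of Tcp1 and Cct8 are therefore uncertain by the share of reads in the shared bases, which the tables do not give.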

How the data were processed

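For each library the authors deposited estimated counts (a column of raw fragments) and FPKM values of 23356 genes, which they had computed per gene. The study's methods name the mm9 assembly, RefSeq and DNAnexus, whereas the submitters' processing notes name mm10, and aligner and versions are not given in the sources used here. The files give no coordinates. For 45 min replicate 1, 27 symbols had become dates and were restored by row order. Between 98.4% and 99.8% of counts per library were whole within 0.001, and all were rounded. No pair of libraries was identical. The main test was edgeR 4.0.16 (R 4.3.3), quasi-likelihood with TMM, 1 mean per group over 16 libraries and at least 1 count in every library. A gene was called at a Benjamini-Hochberg adjusted p under 0.05 over all genes tested. An SE was taken as the fitted log2 value over the root of its F statistic. CPM used all assigned fragments, with a pseudocount of 1 on the log scale, and 0 was given a limit of 3 fragments, which covers counting error only. DESeq2 1.42.0 and scipy 1.17.1 gave alternatives and exact tests.

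The 8 members and all lists were chosen with earlier results of these data known. All 8 members were named, with the tested list members of highest and lowest value at 405 min, all those of lists of 5 or fewer, the 5 genes most like the members in each of the 2 sets of libraries (of which 2 are not reported here), and overlapping genes within 1 kb. The 4% threshold belongs to the members' rule and not to the study. The fit was tested on simulated counts for 405 min against control, with 4-fold changes. At a dispersion of 0.05, the test found 199 of 199, beside 8 false calls, and at 0.625 it found 0 of 179. Same-numbered libraries of 45 and 135 min deviated together in 4 of 4 pairs (r = 0.474 to 0.529), which also share their class of ribosomal protein share, and a replicate block changed no call between these times. The alternatives were other filters, normalizations and tests, fits of fewer libraries, a replicate block, thinning, the ribosomal protein share as a covariate or library size, and leaving out each library.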

Additional observations from a re-analysis of the deposited data

How the results depend on the processing

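Under the planned and added fits, the number of subunits called stayed at 0 in every comparison except with DESeq2, which called 3 at 45 min, 2 at 135 min and 4 at 405 min against control. Leaving out any library called 0. With the replicate block 0 subunits were called and the medians at 45, 135 and 405 min were 2.40, 1.78 and 4.66. At an unadjusted p under 0.05 the block left 0, 0 and 4 subunits higher (3, 2 and 4 without it), and 165, 141 and 786 of 5030 genes. Same-numbered libraries deviated together (r over 0.1) in 14 of 24 pairs and not in every pair with control, so the numbers were not taken to pair treated with control libraries, and 4 correlated best with their own number.

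Signs against control reversed in fits that address library class. With the share as covariate, Cct8 stood at -1.11, -1.88 and -0.88 at 45, 135 and 405 min, Cct7 at -0.48 and the median at -0.10 at 135 min. With only libraries at or below 4%, Cct2, Cct3 and Cct8 stood at -1.19, -0.33 and -1.75 at 45 min (median -0.76), Cct3, Cct7 and Cct8 at -0.084, -0.48 and -3.21 at 135 min (median -0.28), and Cct7 at -1.28 at 405 min; in mean log2(CPM + 1), Tcp1 stood at -2.18 at 135 min, Cct5 at -1.71 at 45 min and Cct6a at -1.42 and -1.52 at 45 and 135 min. With ribosomal protein fragments as library size, Cct7 stood at -0.37, -0.93 and -0.65 and Cct8 at -0.10 and -0.61 (median -0.15 at 135 min). Adding filterByExpr gave -0.36, -0.92 and -0.66 for Cct7 and -0.10 and -0.62 for Cct8.

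Leaving out 1 library gave ranges across 0 for Cct7 (-0.11 to 1.45), Tcp1 (-0.16 to 2.48) and Cct6a (-0.38 to 1.63) at 135 min, Cct6a at 45 min (-0.35 to 1.76), and the medians of 135 against 45 min (-1.16 to 0.32) and 405 against 45 min (-0.075 to 1.18). With exon union lengths the shares were 3.61% for Tcp1, 30.9% for Cct2, 5.97% for Cct3, 18.4% for Cct4, 13.4% for Cct5 and 18.6% for Cct8. Causes of these differences between fits were not tested. Libraries at or below 4% hold few subunit fragments (median 16), which limits every value from them. Fits within 1 class could not be made against control above 4%.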
